A study of Mus musculus with 2 samples.

Results

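The Gpnmb Spp1 macrophages were 1930 of the 23001 cells kept from the adductor muscle of mice whose femoral artery had been ligated. They were chosen cell by cell from their counts. A macrophage here was a cell with at least 1 unique molecular identifier (UMI, the tag that counts an RNA molecule once) of Csf1r and at least 5 of C1qa, C1qb and C1qc together, and none of the fibroblast gene Pdgfra, the endothelial gene Cdh5 or the proliferation genes Mki67 and Top2a, which left 6822 cells. Of these, a Gpnmb Spp1 cell had at least 3 of the 6 genes Gpnmb, Spp1, Fabp5, Syngr1, Mmp12 and Atp6v0d2 detected, and more of them than of a 6-gene list of resident macrophages (led by Cd163), of Cx3cr1 macrophages with MHC class II genes, or of interferon-induced genes. The AIBP-KO library gave 753 of them and the WT library 1177. The 1798 AIBP-KO and 3094 WT macrophages outside the rule are called the other macrophages (other gated macrophages in the plots).

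AIBP-KO animals are Apoa1bp-/- mice, and WT animals are their control littermates. Both genotypes had the femoral artery ligation, so there is no unligated muscle, and the adductors were taken on day 7, minced, digested with collagenase D and strained without a sort for a cell type. Surgery was done on 4 mice of each genotype, and 1 library of each was sequenced; the labels do not say whether the animals were pooled, nor their age, sex or strain. The gene is deleted in the whole animal, so the macrophages and all cells around them lack it. With 1 library per genotype no difference between genotypes has a replicate check: no test was made, cells are not replicates, and every interval below is an exact 95% interval that covers counting error only.

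Lipid-associated macrophages are cells that take up lipid-rich debris and carry a shared set of genes for lipid binding, lysosomal digestion and sterol export. They have been described in obese fat, in atherosclerotic plaque and in injured muscle, and the surface receptor TREM2 with its signalling partner TYROBP is needed for much of that gene set in mice. In ischaemic muscle, macrophages clear dead fibres and help new vessels and fibres to form. AIBP, the protein missing in AIBP-KO mice, binds apolipoprotein A-I and speeds the removal of cholesterol from cells, and it is also the enzyme that repairs hydrated NAD(P)H, working with NAXD.

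Naxe, the present name of Apoa1bp (ENSMUSG00000028070), had 0 UMIs among the 7051729 UMIs of the AIBP-KO Gpnmb Spp1 cells, against 460 UMIs, or 54.1 CPM (UMIs of a gene scaled to 1000000 UMIs of the cells), in the WT cells. Set against a floor of 3 counts, 0.425 CPM, Naxe was at least 127-fold lower in AIBP-KO. Naxd, the partner enzyme (ENSMUSG00000031505), had 44.4 CPM in AIBP-KO and 48.6 CPM in WT, a ratio of 0.913 (0.786 to 1.06).

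The libraries were sequenced to 80444279 UMIs over 9392 barcodes in AIBP-KO and 80954991 UMIs over 14035 barcodes in WT, so AIBP-KO cells were read more deeply. Gpnmb Spp1 cells had a median of 8709 UMIs in AIBP-KO and 6089 in WT, and the other macrophages 5728 in AIBP-KO and 3834 in WT. Scrublet, a caller of barcodes that hold more than 1 cell, marked 39 (5.18%) of the AIBP-KO and 123 (10.5%) of the WT Gpnmb Spp1 cells. These were kept, and some results are also given without them. The libraries shared 43 barcode sequences among those deposited and 39 among those kept, and no barcode was a Gpnmb Spp1 cell in both.

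Gpnmb Spp1 cells were 29.5% (27.8 to 31.3) of AIBP-KO macrophages and 27.6% (26.2 to 28.9) of WT macrophages. The ratio of these shares was 1.07, and its interval, 0.976 to 1.17, included 1. Over all kept cells the shares were 8.22% in AIBP-KO and 8.51% in WT, a ratio of 0.966 (0.88 to 1.06). Other macrophages differed more in share between the libraries: resident Cd163 cells were 1.69% of AIBP-KO and 13.9% of WT macrophages, Cx3cr1 class II cells 40.1% of AIBP-KO and 28.7% of WT macrophages, and interferon-state cells 5.02% of AIBP-KO and 1.8% of WT macrophages. A share can be moved by the cells around it, and detection of the marker genes rises with depth, so the shares were also taken after thinning each cell to 2000 UMIs, where the ratio was 1.09. These shares count only cells in which the 6 genes led the other lists. Further cells had at least 3 of the 6 genes but as many or more of another list. They were 25.5% of AIBP-KO and 16.5% of WT macrophages, a ratio of 1.54 (1.38 to 1.72).

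Of the 6 genes of the rule, Gpnmb encodes a membrane glycoprotein of late endosomes and lysosomes, Spp1 the secreted matrix protein osteopontin, Fabp5 a fatty acid binding protein, Syngr1 a synaptic vesicle-type membrane protein, Mmp12 the macrophage elastase and Atp6v0d2 a subunit of the vacuolar proton pump. They chose the cells, so their levels are a description. Gpnmb was at 1379 CPM in AIBP-KO and 1869 CPM in WT Gpnmb Spp1 cells, and at 338 CPM in AIBP-KO and 253 CPM in WT other macrophages. Spp1 was at 5219 CPM in AIBP-KO and 3792 CPM in WT Gpnmb Spp1 cells, and at 1234 CPM in AIBP-KO and 594 CPM in WT other macrophages. Both genes were detected in over 90% of the cells of either library: Gpnmb in 93% in AIBP-KO and 90.1% in WT, Spp1 in 95.9% in AIBP-KO and 95.1% in WT. Fabp5 had 6020 CPM in AIBP-KO and 5702 CPM in WT cells, and Syngr1 511 CPM in AIBP-KO and 461 CPM in WT cells. Atp6v0d2, at 144 CPM in AIBP-KO and 156 CPM in WT, was detected in 43.8% of AIBP-KO and 42.0% of WT cells. At 2000 UMIs per cell it was detected in 18.7% of AIBP-KO and 20.3% of WT cells, so at this level a cell without a UMI may still express it. T and NK barcodes had a Gpnmb UMI in 5.05% of barcodes in AIBP-KO and 5.64% in WT. They had an Spp1 UMI in 14.5% of barcodes in AIBP-KO and 14.7% in WT. The part of free RNA in these values was not tested. At 2000 UMIs per cell, Gpnmb was detected in 72.2% of AIBP-KO and 74.6% of WT Gpnmb Spp1 cells, against 4.4% of AIBP-KO and 2.08% of WT T and NK barcodes. Spp1 was then detected in 84.3% of AIBP-KO and 81.2% of WT Gpnmb Spp1 cells. Among T and NK barcodes it was detected in 8.4% in AIBP-KO and 13.2% in WT.

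Mmp12 was the marker that differed most between the genotypes. It had 275 CPM in AIBP-KO and 760 CPM in WT Gpnmb Spp1 cells, a ratio of 0.362 (0.344 to 0.381), and 70.3 CPM in AIBP-KO and 89.6 CPM in WT other macrophages, a ratio of 0.785. The share of Gpnmb Spp1 cells with an Mmp12 UMI was 24.7% in AIBP-KO and 36.4% in WT, and at 2000 UMIs per cell 13.8% in AIBP-KO and 25.8% in WT. Gpnmb was lower in AIBP-KO by a ratio of 0.738 and Spp1 higher by a ratio of 1.38, while Fabp5 (1.06), Syngr1 (1.11) and Atp6v0d2 (0.918) had ratios closer to 1. The markers therefore did not move as a block. The plot of the 6 markers by cell group sets these levels beside those of the other macrophages.

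**Figure D1:**
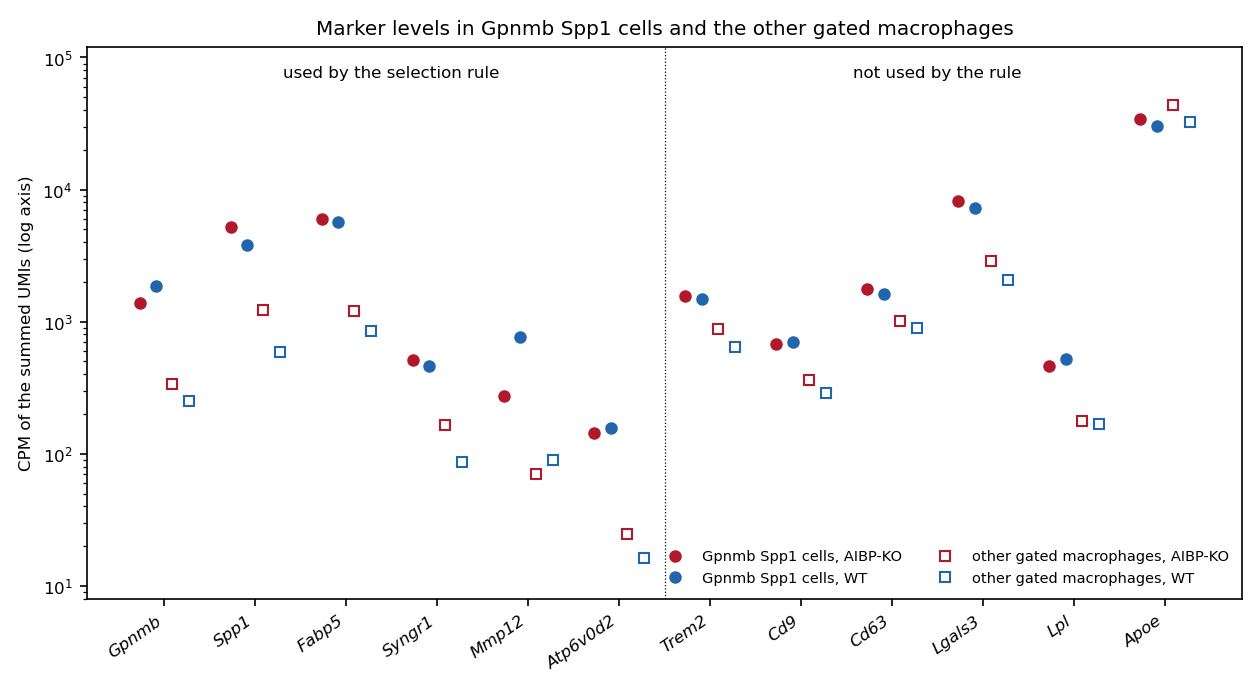
CPM (log axis) of the 6 genes that chose the cells, left of the dotted line, and of 6 genes that did not, right of it, each with a point for Gpnmb Spp1 cells (filled circles) and for the other macrophages (open squares) of AIBP-KO (red) and WT (blue); the points are summed levels of 1 library and carry no error bars. Mmp12 is at 275 CPM in AIBP-KO and 760 CPM in WT Gpnmb Spp1 cells, and Apoe is the gene that is not higher in them than in the other macrophages.

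The promoters of 3 of these marker genes are shown because the markers moved apart between the genotypes: Spp1 was higher, and Gpnmb and Mmp12 lower, in AIBP-KO. Each runs from 250 bases before to 50 bases after a RefSeq transcript start (build GRCm38.p6), 5′ to 3′ on the gene's strand. Capitals mark matches, on either strand, to CACGTG (the E-box bound by the MiT family of lysosomal regulators), CATGTG (a core of the related M-box), TGANTCA (the AP-1 site) or the core of the interferon-stimulated response element (GAAA, any 2 bases, GAAA). The windows lie at chr6:49036268-49036567 (+) for Gpnmb, chr5:104434861-104435160 (+) for Spp1 and chr9:7347124-7347423 (+) for Mmp12.
Gpnmb: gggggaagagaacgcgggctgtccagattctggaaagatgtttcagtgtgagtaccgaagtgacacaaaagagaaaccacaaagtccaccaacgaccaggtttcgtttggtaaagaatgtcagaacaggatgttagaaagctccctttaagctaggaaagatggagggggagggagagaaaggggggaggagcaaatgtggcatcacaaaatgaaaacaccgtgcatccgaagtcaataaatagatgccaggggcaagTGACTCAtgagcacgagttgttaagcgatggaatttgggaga
Spp1: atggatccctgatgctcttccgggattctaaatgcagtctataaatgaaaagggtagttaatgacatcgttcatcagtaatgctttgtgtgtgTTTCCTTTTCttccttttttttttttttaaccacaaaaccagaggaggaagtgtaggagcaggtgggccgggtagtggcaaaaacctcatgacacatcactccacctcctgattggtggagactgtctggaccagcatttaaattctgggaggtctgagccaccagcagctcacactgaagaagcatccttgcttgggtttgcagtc
Mmp12: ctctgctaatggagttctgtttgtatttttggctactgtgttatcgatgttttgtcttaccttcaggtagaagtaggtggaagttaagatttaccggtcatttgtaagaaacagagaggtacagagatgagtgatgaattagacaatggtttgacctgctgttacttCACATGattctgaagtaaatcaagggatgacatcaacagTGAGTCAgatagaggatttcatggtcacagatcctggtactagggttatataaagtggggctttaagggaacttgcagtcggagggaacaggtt
Gpnmb held TGACTCA just after its start, Mmp12 held CACATG and, closer to the start, TGAGTCA, and Spp1 held 1 opposite-strand match to the interferon element core. Spp1 and Mmp12 each have a further start in the table, whose window held none of these motifs and is not printed. Of 27025 genes with a promoter in the table, 8.97% held TGANTCA, 15.9% CATGTG, 8.09% CACGTG and 3.99% the interferon element core. A match describes these letters only.

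The cells at the edge of the rule are those with fewer of the 6 genes detected, so lower marker levels there are in part built in. Cells with exactly 3 of the 6 genes, 108 (14.3%) in AIBP-KO and 257 (21.8%) in WT, had Gpnmb at 432 CPM in AIBP-KO and 559 CPM in WT and Spp1 at 1493 CPM in AIBP-KO and 1667 CPM in WT. Cells just outside, with 2 of the 6 genes and more of them than of any other list, were 32 in AIBP-KO and 86 in WT, with Gpnmb at 176 CPM in AIBP-KO and 160 CPM in WT and Spp1 at 847 CPM in AIBP-KO and 2041 CPM in WT. In WT, Spp1 was thus higher in the cells just outside than in the cells with 3 of the 6 genes. A larger set, 650 cells in AIBP-KO and 706 in WT, had at least 3 of the 6 genes but as many or more of another list, and another 232 in AIBP-KO and 277 in WT met the lists but carried Mki67 or Top2a. Gpnmb Spp1 cells thus border on cells of other macrophage states and on dividing cells that the rule left out. All 6 genes were detected in 108 (14.3%) AIBP-KO and 199 (16.9%) WT cells, and Gpnmb, Spp1, Fabp5 and Syngr1 without the other two in 266 (35.3%) AIBP-KO and 290 (24.6%) WT cells.

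The label was checked on lipid-associated macrophage genes that the rule did not use. Of 19 such genes with at least 20 CPM, 16 were at least 1.5-fold higher in Gpnmb Spp1 cells than in the other macrophages in both libraries and none was lower; over all 5039 genes compared this way, 2.42% were higher and 5.72% lower. Their median log2 ratio was 0.91 in AIBP-KO and 1.08 in WT, against -0.07 in AIBP-KO and -0.09 in WT over all genes. The cells were sorted by their own counts, so these comparisons describe the cells and test nothing. Trem2, the lipid receptor, had 1557 CPM in AIBP-KO and 1477 CPM in WT Gpnmb Spp1 cells, against 878 CPM in AIBP-KO and 644 CPM in WT other macrophages. Lgals3, which encodes galectin-3, had 8179 CPM in AIBP-KO and 7248 CPM in WT Gpnmb Spp1 cells, against 2901 CPM in AIBP-KO and 2052 CPM in WT other macrophages. Lpl, the lipoprotein lipase, had 458 CPM in AIBP-KO and 522 CPM in WT Gpnmb Spp1 cells, against 176 CPM in AIBP-KO and 168 CPM in WT other macrophages. The tetraspanins Cd9 (1.89 times the other macrophages in AIBP-KO, 2.44 in WT) and Cd63 (1.73 in AIBP-KO, 1.82 in WT) were also higher. The exceptions were Apoe, the apolipoprotein, at 0.789 times the other macrophages in AIBP-KO and 0.93 times in WT, Tyrobp at 1.18 times in AIBP-KO and 1.37 times in WT, and the sialic acid enzyme gene Npl. Apoe, a gene often listed for lipid-associated macrophages, thus did not set these cells apart here.

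Several of these genes followed the number of rule genes detected. From the other macrophages through cells with 3, 4, 5 and 6 rule genes, Lgals3 ran 2901, 4730, 5843, 8621 and 13067 CPM in AIBP-KO and 2052, 3075, 4983, 7641 and 11768 CPM in WT. Trem2 ran 878, 1012, 1495, 1600 and 1832 CPM in AIBP-KO and 644, 931, 1310, 1582 and 1854 CPM in WT. Lpl ran 176, 247, 290, 434 and 885 CPM in AIBP-KO and 168, 186, 275, 527 and 992 CPM in WT. These genes increased step by step in both libraries, whereas Apoe was lowest in the cells with all 6 rule genes, at 23426 CPM in AIBP-KO and 19911 CPM in WT. The summed MHC class II genes did not fall with the score: cells with 3 rule genes had 7019 CPM in AIBP-KO and 6552 CPM in WT, and cells with 6 had 9979 CPM in AIBP-KO and 8991 CPM in WT. Summed interferon-induced genes ran the other way: over cells with 3, 4, 5 and 6 rule genes they were at 8106, 6054, 5582 and 5101 CPM in AIBP-KO and 7384, 4279, 3291 and 2790 CPM in WT. The rule allowed more genes of the class II and interferon lists in cells with more rule genes, so the MHC class II pattern is not independent of the rule. Depth also moved with the score, with a median of 5775, 7726, 10272 and 12234 UMIs per cell in AIBP-KO and 4121, 5494, 7234 and 10293 in WT. The part of depth in these gradients was not tested.

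**Figure D2:**
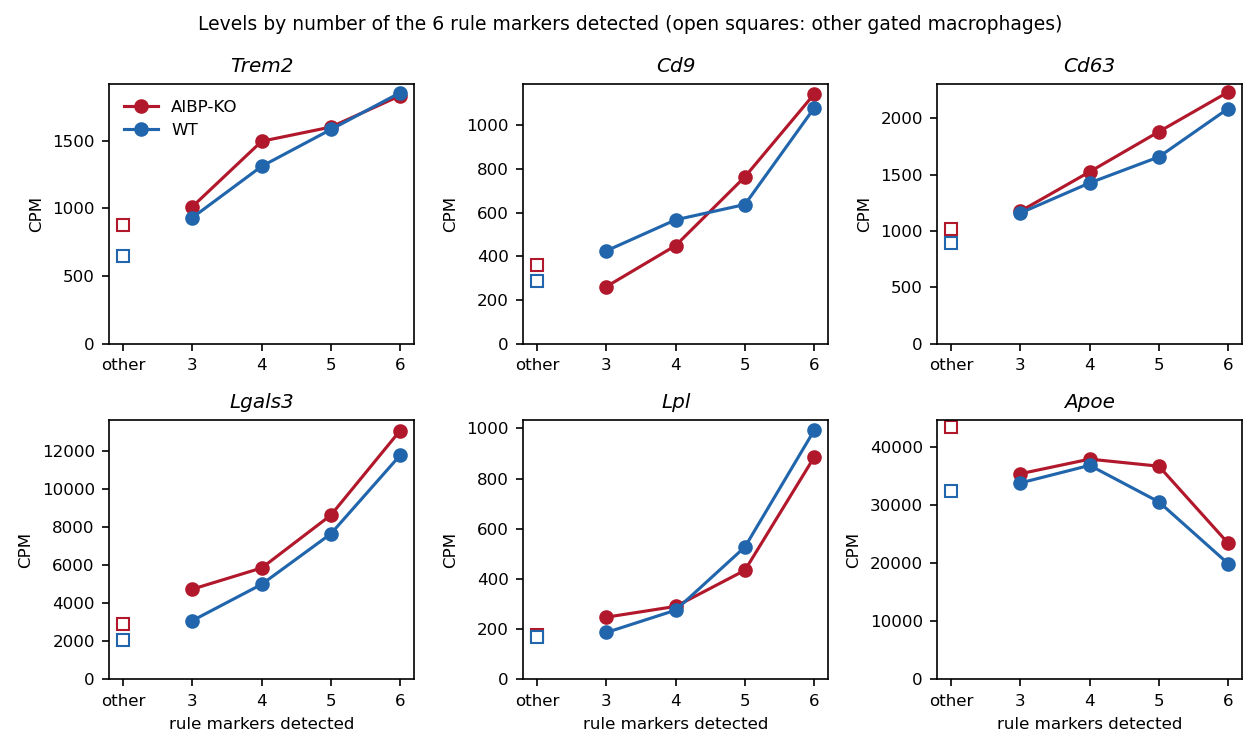
CPM of 6 genes outside the rule against the number of rule genes detected, with the other macrophages as open squares on the left and Gpnmb Spp1 cells with 3 to 6 rule genes as joined circles, AIBP-KO in red and WT in blue; points are summed levels of 1 library. Lgals3 reaches 13067 CPM in AIBP-KO and 11768 CPM in WT cells with all 6 genes, while Apoe is lowest there.

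Genes of the lysosome were higher in Gpnmb Spp1 cells. Of 29 lysosomal proteases and hydrolases, 8 were at least 1.5-fold higher than in the other macrophages in both libraries and none was lower. Ctsl, encoding cathepsin L, had 2270 CPM in AIBP-KO and 2139 CPM in WT Gpnmb Spp1 cells, against 701 CPM in AIBP-KO and 538 CPM in WT other macrophages. Ctsd, cathepsin D, had 4460 CPM in AIBP-KO and 5763 CPM in WT Gpnmb Spp1 cells, against 1825 CPM in AIBP-KO and 2082 CPM in WT other macrophages. Lipa, the lysosomal acid lipase that frees cholesterol from its esters, was at 1.67 times the other macrophages in AIBP-KO and 1.98 times in WT. Of 16 further subunits of the vacuolar proton pump, which acidifies lysosomes, Atp6v0c, Atp6v1a, Atp6v1b2 and Atp6v1c1 passed 1.5-fold, and the summed level of all 16 was 6507 CPM in AIBP-KO and 6076 CPM in WT Gpnmb Spp1 cells, against 4674 CPM in AIBP-KO and 4108 CPM in WT other macrophages. Of 15 lysosomal membrane genes, 3 were higher.

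Genes of fatty acid uptake and storage were higher as well, 6 of 10 past 1.5-fold and none lower. Cd36, the scavenger receptor and fatty acid transporter, was at 3.4 times the other macrophages in AIBP-KO and 3.24 times in WT. Fabp4, a fatty acid binding protein that capillary endothelium also expresses, was at 3.78 times in AIBP-KO and 6.36 times in WT, and Plin2, the coat protein of lipid droplets, at 1.88 times in AIBP-KO and 2.22 times in WT. Sterol export was different: of 14 genes of cholesterol efflux and the LXR receptors only Nceh1 and Soat1, which cleave and form cholesterol esters, were higher. The exporter Abca1 was at 0.967 times the other macrophages in AIBP-KO and 0.87 times in WT. None of 13 fatty acid oxidation genes, 18 tricarboxylic acid cycle genes, 47 nuclear respiratory chain genes or 13 mitochondrially encoded genes passed 1.5-fold in both libraries, and 4 of 12 glycolysis genes did, among them Hk3 at 2.44 times in AIBP-KO and 2.38 times in WT. The ferritin genes Fth1 and Ftl1, which store iron, were at 1.58 and 1.77 times the other macrophages in AIBP-KO and at 1.81 and 1.92 times in WT.

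Among single genes outside the rule, ranked by the smaller of the differences in the 2 libraries, F7 led. F7 (ENSMUSG00000031443), encoding coagulation factor VII, had 39.4 CPM in AIBP-KO and 33.1 CPM in WT Gpnmb Spp1 cells, against 8.84 CPM in AIBP-KO and 6.15 CPM in WT other macrophages. Npy (ENSMUSG00000029819), encoding neuropeptide Y, had 64.1 CPM in AIBP-KO and 82.3 CPM in WT Gpnmb Spp1 cells, against 16.7 CPM in AIBP-KO and 6.64 CPM in WT other macrophages. Il7r, a receptor chain best known from lymphocytes, had 200 CPM in AIBP-KO and 228 CPM in WT Gpnmb Spp1 cells, against 68.5 CPM in AIBP-KO and 47.2 CPM in WT other macrophages, and was detected in 49.0% of AIBP-KO and 48.6% of WT cells. A gene named for clotting, a neuropeptide and a lymphocyte receptor were thus each higher in these macrophages in both libraries. F7 and Npy were detected in a minority of the cells, F7 in 15.7% in AIBP-KO and 10.6% in WT. Npy was detected in 13.9% in AIBP-KO and 15.9% in WT, and its 10 richest cells held 40.9% and 38.6% of its UMIs. The T and NK marker list as a whole summed to 222 CPM in AIBP-KO and 247 CPM in WT Gpnmb Spp1 cells, nearly all of it Il7r. The rest of the ranking were the ubiquitin ligase gene Rnf128, the kinase gene Cdk18, Pcp4l1, Cd36, Ctsl, the creatine transporter gene Slc6a8, the C-type lectin gene Clec4d, the metalloprotease gene Adam8, Lgals3, Niban2, Lpl and the aminopeptidase gene Anpep. Their ratios to the other macrophages ran from 2.59 (Anpep) to 4.46 (F7) in AIBP-KO and from 2.59 (Anpep) to 12.4 (Npy) in WT.

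Genes lower in Gpnmb Spp1 cells included 3 of 8 monocyte genes, 7 of 9 MHC class II presentation genes and 5 of 13 genes of resident and alternatively activated macrophages. The last list was mixed: Il1rn was higher, and its median log2 ratio was -0.07 in AIBP-KO and -0.63 in WT, with summed levels of 7108 CPM in AIBP-KO and 7565 CPM in WT Gpnmb Spp1 cells, against 7144 CPM in AIBP-KO and 12077 CPM in WT other macrophages. Ccr2, the chemokine receptor of recruited monocytes, had 37.4 CPM in AIBP-KO and 40.6 CPM in WT Gpnmb Spp1 cells, against 206 CPM in AIBP-KO and 165 CPM in WT other macrophages. Plac8, another monocyte gene, had 24.4 CPM in AIBP-KO and 18.1 CPM in WT Gpnmb Spp1 cells, against 132 CPM in AIBP-KO and 88.0 CPM in WT other macrophages. Retnla, Clec10a and Mgl2, genes of alternatively activated macrophages, were at 0.111, 0.255 and 0.309 times the other macrophages in AIBP-KO and at 0.186, 0.121 and 0.176 times in WT. The lower MHC class II presentation genes included Cd74, the invariant chain, at 2797 CPM in AIBP-KO and 2925 CPM in WT Gpnmb Spp1 cells, against 9941 CPM in AIBP-KO and 7667 CPM in WT other macrophages, and Ciita, the regulator of these genes, at 0.229 times in AIBP-KO and 0.283 times in WT. Of 21 type I interferon-induced genes 18 were lower, with a median log2 ratio of -0.86 in AIBP-KO and -0.97 in WT. The rule set these cells apart from cells with H2-Aa, H2-Eb1 and 6 interferon-induced genes, so part of both differences was built in. Against resident Cd163 cells alone, 2 of the MHC class II genes were lower in both libraries. The rule also set them apart from cells with the resident list, so part of the lower alternative activation levels was built in too. Retnla, Clec10a and Mgl2 were at 1174, 549 and 149 CPM in AIBP-KO and 1770, 636 and 264 CPM in WT resident Cd163 cells. In Cx3cr1 class II cells they were at 166, 46.9 and 32.2 CPM in AIBP-KO and 1317, 68.2 and 73.5 CPM in WT. The complement gene C4b, at 8.37 CPM in AIBP-KO and 28.6 CPM in WT Gpnmb Spp1 cells and 37.9 CPM in AIBP-KO and 177 CPM in WT other macrophages, is also a fibroblast gene, and the summed fibroblast markers were 869 CPM in AIBP-KO and 2894 CPM in WT Gpnmb Spp1 cells against 1386 CPM in AIBP-KO and 4268 CPM in WT other macrophages; their part in the C4b difference was not tested. The rest of this ranking were the interferon-induced genes Mx1 and Ifi206, the schlafen gene Slfn1, the transporter gene Abca9 and Ltc4s, the leukotriene C4 synthase, at 0.301 times in AIBP-KO and 0.18 times in WT.

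**Figure D3:**
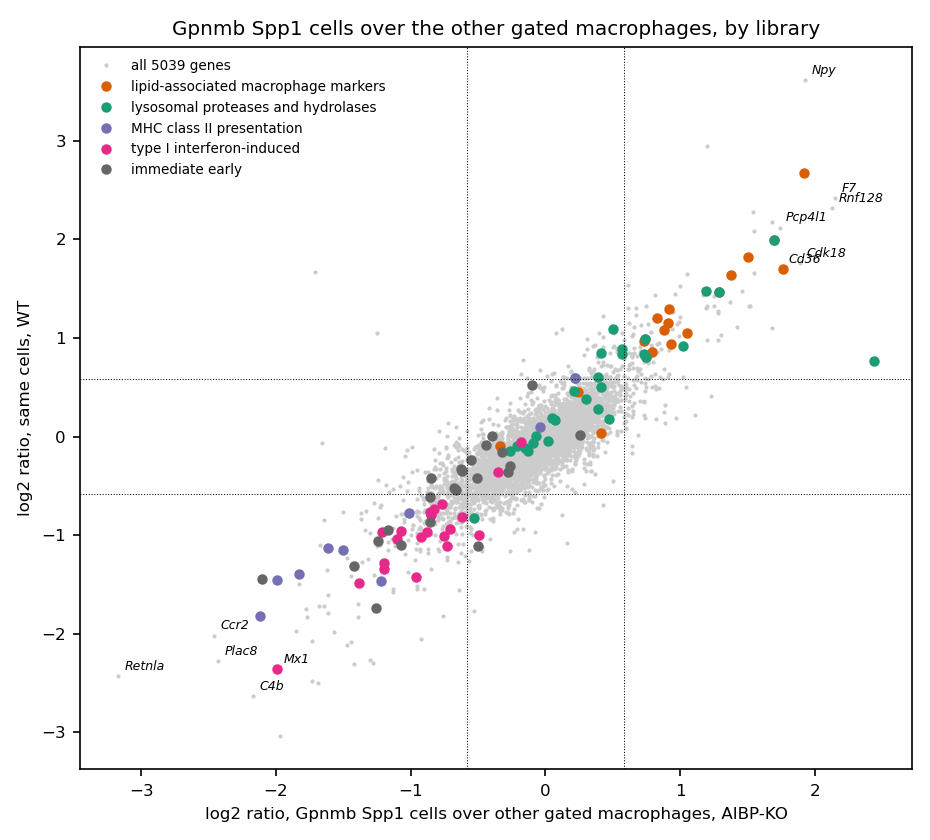
Log2 ratio of CPM in Gpnmb Spp1 cells over the other macrophages, in AIBP-KO on the horizontal and WT on the vertical axis, for 5039 genes (grey), with 5 gene lists in colour and dotted lines at 1.5-fold. Most genes lie near the diagonal, lipid-associated macrophage and lysosomal genes toward the upper right with F7, Npy and Rnf128, and MHC class II and interferon-induced genes toward the lower left with Retnla, Ccr2 and Plac8.

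Within Gpnmb Spp1 cells, AIBP-KO was compared with WT over 5260 genes of at least 20 CPM in either library, which is 141 UMIs or more. In AIBP-KO 130 genes (2.47%) were at least 1.5-fold higher and 434 (8.25%) at least 1.5-fold lower, and the median log2 ratio was -0.10. Every list count between the genotypes below is to be read beside these shares of all genes. Scaled to that median instead of the total, 215 genes were higher and 311 lower. With barcodes called doublets left out, 146 genes were higher and 294 lower, and 255 of the 434 lower genes were still called. Without the genes that were as high in fibroblast barcodes, a check added after seeing the data, 92 genes were higher and 101 lower of 2359. Genes described below as higher in AIBP-KO include interferon-induced genes and the chemokine genes Ccl2, Ccl7 and Ccl12, and genes described as lower include Mfge8, Retnla and markers of fibroblasts and erythroid cells.

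Of 20 type I interferon-induced genes, 15 were at least 1.5-fold higher in AIBP-KO Gpnmb Spp1 cells and none was lower, with a median log2 ratio of 0.79. Isg15 (ENSMUSG00000035692), a ubiquitin-like modifier, had 135 CPM in AIBP-KO and 43.4 CPM in WT, a ratio of 3.12 (2.76 to 3.53), and was detected in 44.8% of AIBP-KO and 14.5% of WT cells. Irf7 (ENSMUSG00000025498), the transcription factor that amplifies interferon production, had 168 CPM in AIBP-KO and 72.9 CPM in WT, a ratio of 2.3 (2.09 to 2.54). Rtp4, a receptor chaperone induced by interferon, had 96.4 CPM in AIBP-KO and 31.9 CPM in WT, and Bst2, the tethering factor that holds virions on the cell, 870 CPM in AIBP-KO and 500 CPM in WT. Detection at 2000 UMIs per cell kept these differences: Isg15 was found in 17.6% of AIBP-KO and 6.0% of WT cells and Irf7 in 28.0% of AIBP-KO and 11.3% of WT cells. Zbp1, a nucleic acid sensor, had a ratio of 2.29, Xaf1 2.35, Oas1a 2.14 and Oasl2 2.03. Among the genes short of 1.5-fold were Ifi27l2a (1.24), Ifitm3 (1.33), Ly6e (1.42) and Stat2 (1.16), each above 1. Ifi203, Ifi204, Ifi209, Ifi213 and Mndal belong to 1 family of similar genes whose reads may be divided among copies, so their single values (Mndal 118 CPM in AIBP-KO and 53.4 CPM in WT) are uncertain. The interferon difference was spread over many cells: without the 10 cells richest in Isg15, its ratio was 3.63.

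Isg15 and Irf7 were also higher in the other macrophages of AIBP-KO and in its barcodes of other cell types. Isg15 had 290 CPM in AIBP-KO and 89.4 CPM in WT other macrophages, a ratio of 3.24, and Irf7 303 CPM in AIBP-KO and 126 CPM in WT, a ratio of 2.4. In each library, Gpnmb Spp1 cells had less of both genes than the other macrophages. Their AIBP-KO level of Isg15, 135 CPM, was nonetheless above that of the WT other macrophages. Outside the interferon list, Ms4a4c (62.4 CPM in AIBP-KO and 21.9 CPM in WT), and Btg2, an antiproliferative early response gene (177 CPM in AIBP-KO and 75.5 CPM in WT), were among the 12 genes most clearly higher in AIBP-KO Gpnmb Spp1 cells.

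The Isg15 promoter is shown because this gene set moved together. Its window lies at chr4:156200769-156201068 (-), with 3 overlapping matches to the interferon element core in capitals.
Isg15: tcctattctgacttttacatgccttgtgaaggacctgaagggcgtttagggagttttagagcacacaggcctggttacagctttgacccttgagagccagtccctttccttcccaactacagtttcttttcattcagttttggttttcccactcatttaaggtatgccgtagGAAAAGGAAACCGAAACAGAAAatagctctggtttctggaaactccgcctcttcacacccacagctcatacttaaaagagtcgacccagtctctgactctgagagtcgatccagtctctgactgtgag
Of the 24 interferon-induced genes, 16 had a promoter in the RefSeq table, and 9 of these (56.2%) held that core on either strand, against 3.99% of all genes. Of 12 vacuolar proton pump genes with a promoter 4 (33.3%), and of 25 lysosomal hydrolase genes 8 (32%), held CACGTG, against 8.09% of all genes.

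The chemokines that recruit monocytes through CCR2 differed most among the genes higher in AIBP-KO. Ccl12 (ENSMUSG00000035352) had 148 CPM in AIBP-KO and 35 CPM in WT Gpnmb Spp1 cells, a ratio of 4.23 (3.72 to 4.83). Ccl7 (ENSMUSG00000035373) had 224 CPM in AIBP-KO and 62.4 CPM in WT, a ratio of 3.59 (3.25 to 3.97). Ccl2 (ENSMUSG00000035385) had 347 CPM in AIBP-KO and 111 CPM in WT, a ratio of 3.14 (2.91 to 3.38). These transcripts were concentrated in few cells: the 10 richest cells held 55.6% of the Ccl2 UMIs in AIBP-KO and 40.4% in WT. Without the 10 richest cells of each library the ratios were 3.75 for Ccl12, 2.97 for Ccl7 and 2.36 for Ccl2. The cells with a UMI were 25.4% in AIBP-KO and 11.5% in WT for Ccl12, but 13.5% in AIBP-KO and 12% in WT for Ccl7 and 21.9% in AIBP-KO and 17.8% in WT for Ccl2, so for the last 2 genes the difference lay more in the amount per positive cell than in their number. Of the 165 AIBP-KO cells with Ccl2, 80 (48.5%) also had Ccl7, and of the 210 WT cells 86 (41%), against 3.74% of AIBP-KO and 5.69% of WT cells without Ccl2. Other macrophages had smaller ratios, 1.92 for Ccl12, 1.85 for Ccl7 and 1.79 for Ccl2, and whether the ratios differ between the cell groups was not tested.

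Other chemokines went lower or stayed within 1.5-fold. Of 15 chemokine genes, Ccl2, Ccl7 and Ccl12 were higher in AIBP-KO and Ccl5 (0.657), Ccl6 (0.529), Ccl24 (0.151) and Cxcl9 (0.118) were lower. Ccl6 had 281 CPM in AIBP-KO and 531 CPM in WT, whereas Pf4, platelet factor 4, had 2268 CPM in AIBP-KO and 1914 CPM in WT. Ccl24, an eosinophil attractant, was detected in 22 AIBP-KO and 66 WT cells, and Cxcl9, induced by interferon gamma, in 14 AIBP-KO and 30 WT cells, of which 10 held 83.3% of its UMIs in AIBP-KO and 91.0% in WT. The values of these 2 genes rest on few cells, and without the 10 richest of each library Cxcl9 had 0.577 CPM in AIBP-KO and 2.63 CPM in WT.

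Mfge8 (ENSMUSG00000030605), which encodes a secreted bridge between phosphatidylserine on dying cells and phagocyte integrins, was lower in AIBP-KO Gpnmb Spp1 cells but close to equal in the other macrophages. It had 94.0 CPM in AIBP-KO and 362 CPM in WT Gpnmb Spp1 cells, a ratio of 0.259 (0.238 to 0.282), and 40.9 CPM in AIBP-KO and 46.7 CPM in WT other macrophages, a ratio of 0.876. The gap in WT was thus between Gpnmb Spp1 cells and the rest, and in AIBP-KO that gap was smaller. It was detected in 174 (23.1%) AIBP-KO and 386 (32.8%) WT cells. Cells with 3 or more Mfge8 UMIs, a limit set after its values were seen, were 66 (8.76%) in AIBP-KO and 173 (14.7%) in WT. In them Gpnmb had 2077 CPM in AIBP-KO and 3112 CPM in WT, against 1290 CPM in AIBP-KO and 1551 CPM in WT among the remaining Gpnmb Spp1 cells. The pericyte gene Rgs5 was higher in them too, at 65.6 CPM in AIBP-KO and 94.8 CPM in WT, against 19.5 CPM in AIBP-KO and 7.1 CPM in WT among the remaining cells. So was the smooth muscle gene Tagln, at 70.7 CPM in AIBP-KO and 86.7 CPM in WT against 32 CPM in AIBP-KO and 35.6 CPM in WT. The Rgs5 values rest on few cells: 21 AIBP-KO and 43 WT Gpnmb Spp1 cells had a UMI of it. Its 10 richest cells held 93.7% of its UMIs in AIBP-KO and 84.4% in WT, where 1 cell held 152 of 212. Without the 10 cells of each library richest in Mfge8, the Mfge8 ratio was 0.236. Without barcodes called doublets Mfge8 had 96.2 CPM in AIBP-KO and 408 CPM in WT. Barcodes with at least 3 UMIs of the pericyte gene Rgs5 and none of Csf1r or Cdh5, 205 in AIBP-KO and 201 in WT, also had Mfge8, at 854 CPM in AIBP-KO and 1005 CPM in WT. The summed pericyte and smooth muscle markers in Gpnmb Spp1 cells were 143 CPM in AIBP-KO and 197 CPM in WT, and their part in the Mfge8 difference was not tested.

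Retnla (ENSMUSG00000061100), encoding the secreted protein RELM alpha of alternatively activated macrophages, had 18.6 CPM in AIBP-KO and 247 CPM in WT Gpnmb Spp1 cells, a ratio of 0.0751 (0.0625 to 0.0896). It was detected in 21 AIBP-KO and 138 WT cells, and 10 cells held 91.6% of its UMIs in AIBP-KO and 70.0% in WT; of the 131 UMIs in AIBP-KO, 108 were in 1 cell. Other macrophages had 168 CPM in AIBP-KO and 1333 CPM in WT, a ratio of 0.126. The difference was therefore shared with the other macrophages, and Retnla was detected in a minority of Gpnmb Spp1 cells. Without the 10 cells of each library richest in it, it had 1.59 CPM in AIBP-KO and 75.4 CPM in WT. Endothelial, muscle and T and NK barcodes had 67, 141 and 54.3 CPM in WT and 1.02, 13.2 and 8.33 CPM in AIBP-KO, and B barcodes 0 CPM in WT and 8.78 CPM in AIBP-KO. The part of free RNA in the Retnla values of Gpnmb Spp1 cells was not tested. Clec10a, a lectin of the same activation state, was lower as well, at 16.0 CPM in AIBP-KO and 24.6 CPM in WT. Of 14 resident and alternative activation genes these, with Ccl24, were the 3 lower ones, and none was higher. Mgl2, not 1 of these 3, was lower too, at 10.1 CPM in AIBP-KO and 20.8 CPM in WT, a ratio of 0.483. It was detected in 22 AIBP-KO and 86 WT cells. Ccdc152 had 15.2 CPM in AIBP-KO and 114 CPM in WT, but it overlaps Selenop, whose level was 2391 CPM in AIBP-KO and 2398 CPM in WT, so its value is uncertain. Mt3, Adam19 and Fgfr1 were at 0.196, 0.262 and 0.282 times WT, with at most 8.37 CPM each in AIBP-KO.

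Within Gpnmb Spp1 cells, the lipid and lysosome genes that characterised them differed little between the genotypes. The rule chose the cells by genes of the same kind, so these values are not independent of it. Of the 19 lipid-associated macrophage genes outside the rule, none was 1.5-fold higher in AIBP-KO and Cd36 alone was lower, with a median log2 ratio of 0.05. Cd36 had 277 CPM in AIBP-KO and 486 CPM in WT, a ratio of 0.57 (0.54 to 0.602), and the other macrophages had a ratio of 0.544. Trem2 had a ratio of 1.05 (1.03 to 1.08), Lgals3 1.13, Apoe 1.14, Lpl 0.878 and Cd9 0.978. In the other macrophages these genes were each higher in AIBP-KO than in WT. Trem2 had 878 against 644 CPM there, Lgals3 2901 against 2052 CPM and Apoe 43495 against 32462 CPM. Lpl had 176 against 168 CPM and Cd9 360 against 286 CPM. In Gpnmb Spp1 cells, none of the 16 proton pump genes and none of the 15 lysosomal membrane genes passed 1.5-fold. Among 29 hydrolases only Tpp1 (0.654) was lower and Ctsk higher. Ctsk, encoding cathepsin K, had 106 CPM in AIBP-KO and 55.0 CPM in WT, but 10 cells held 76.5% of its AIBP-KO UMIs and 49.5% of its WT UMIs, and without them it had 25.3 CPM in AIBP-KO and 28.4 CPM in WT.

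AIBP is known for cholesterol removal. Of 14 genes of cholesterol efflux and LXR targets, 2 were lower and none higher in AIBP-KO Gpnmb Spp1 cells, where 8.25% of all 5260 genes were lower and 2.47% higher. Whether this count differs from that share was not tested. Abca1, the transporter that loads cholesterol onto apolipoprotein A-I, had 215 CPM in AIBP-KO and 349 CPM in WT, a ratio of 0.616 (0.579 to 0.656), and 223 CPM in AIBP-KO and 402 CPM in WT other macrophages, a ratio of 0.554. Mylip, the LXR target that degrades the LDL receptor, had 36.0 CPM in AIBP-KO and 64.2 CPM in WT. Abcg1, which exports cholesterol to HDL, had 142 CPM in AIBP-KO and 168 CPM in WT, a ratio of 0.846. The median log2 ratio of the list was -0.27, against -0.10 over all genes. None of the 14 fatty acid oxidation or 18 tricarboxylic acid cycle genes passed 1.5-fold. Of 13 mitochondrially encoded genes, mt-Co2 (3652 CPM in AIBP-KO and 1671 CPM in WT), mt-Atp6 and mt-Nd4l were higher and mt-Nd6 lower; the other macrophages had a ratio of 2.1 for mt-Co2, and the median mitochondrial share of UMIs in Gpnmb Spp1 cells was 1.84% in AIBP-KO and 1.4% in WT.

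Some growth factor and receptor genes also differed. Pdgfa and Pdgfb, ligands of mesenchymal growth factor receptors, had 48.4 and 40.6 CPM in AIBP-KO and 82.2 and 68.0 CPM in WT. Osm, the cytokine oncostatin M, had 37.3 CPM in AIBP-KO and 21.9 CPM in WT. Fcgr1, the high-affinity IgG receptor, had 225 CPM in AIBP-KO and 118 CPM in WT, a ratio of 1.9. Of 11 secreted repair factors 1 was higher and 3 lower. Of 20 genes of phagocytosis receptors and bridging proteins 1 was higher, and 2, Mfge8 and Cd36, lower. Over all 5260 genes 2.47% were higher and 8.25% lower, and whether these lists differ from those shares was not tested. Itgax, the integrin chain CD11c, had 84.7 CPM in AIBP-KO and 164 CPM in WT.

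**Figure D4:**
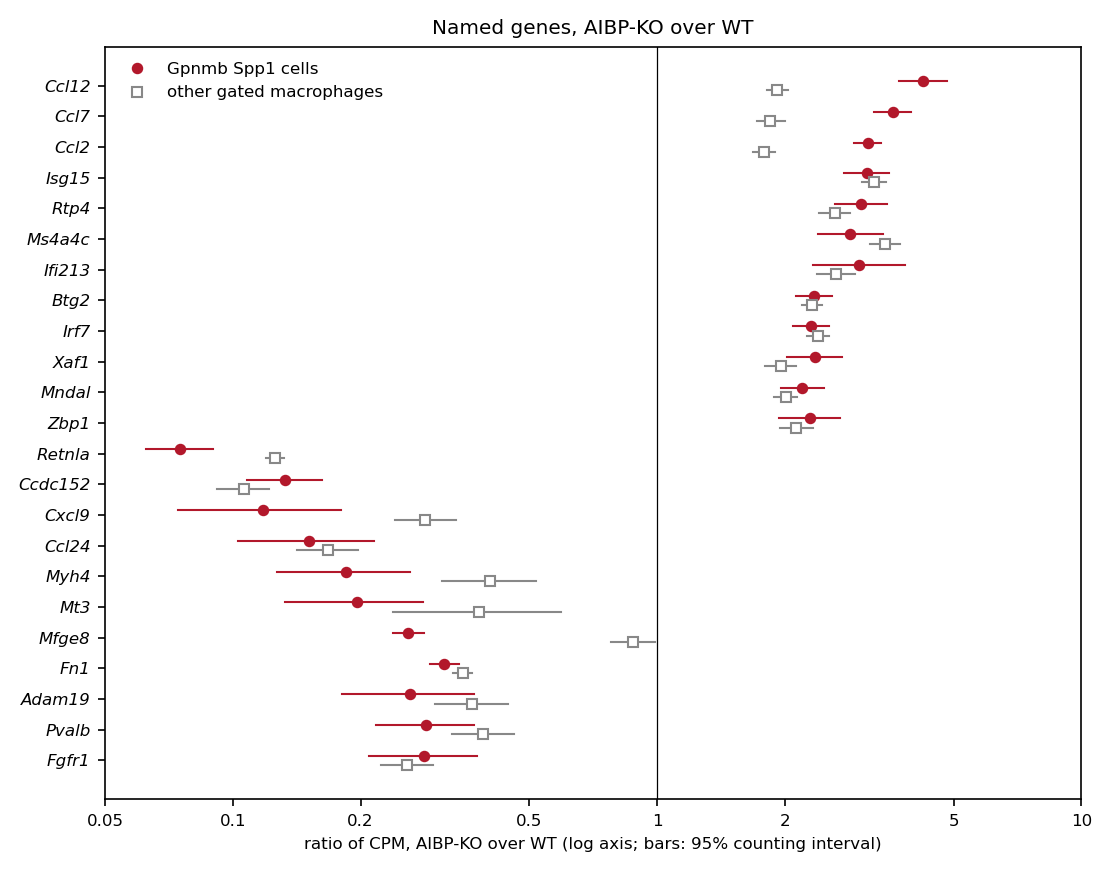
Ratio of CPM in AIBP-KO over WT (log axis) for the genes named by rank, in Gpnmb Spp1 cells (red circles) and in the other macrophages (open grey squares), with exact 95% intervals for counting error; Naxe, with 0 UMIs in AIBP-KO, is not drawn. Isg15 has nearly the same ratio in Gpnmb Spp1 cells (3.12) and the other macrophages (3.24), whereas Mfge8 is at 0.259 in Gpnmb Spp1 cells and 0.876 in the other macrophages.

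Matrix and complement genes were lower in AIBP-KO Gpnmb Spp1 cells, and so was RNA of fibroblasts. Of 18 matrix genes 7 were lower and none higher, including Fn1 (ENSMUSG00000026193), fibronectin, at 107 CPM in AIBP-KO and 340 CPM in WT, Sparc at a ratio of 0.485 and Timp3 at 0.315. Of 9 complement genes 4 were lower, among them C3 (0.368), C4b (0.292) and Serping1 (0.293). These matrix and complement values include barcodes called doublets. All 12 fibroblast marker genes were lower, with a median log2 ratio of -2.06 and a summed level of 869 CPM in AIBP-KO and 2894 CPM in WT, and fibroblast barcodes were a smaller share of the AIBP-KO library (11.7%) than of the WT library (18.4%). Barcodes called doublets carried most of it in WT, with a summed level of 2943 CPM in the 39 AIBP-KO and 13383 CPM in the 123 WT doublets. Without them the sum was 720 CPM in AIBP-KO and 1060 CPM in WT, 4 of 8 fibroblast genes were lower, Sparc had 166 CPM in AIBP-KO and 176 CPM in WT, and Fn1 102 CPM in AIBP-KO and 243 CPM in WT. The part of fibroblast RNA in the Fn1 value left after that was not tested. Haemoglobin and other erythroid genes summed to 11.6 CPM in AIBP-KO and 392 CPM in WT, and muscle genes to 1280 CPM in AIBP-KO and 1677 CPM in WT; the muscle genes Myh4 (0.185) and Pvalb (0.285) were among the 12 genes most clearly lower. Neutrophil markers summed to 223 CPM in AIBP-KO and 125 CPM in WT. Endothelial markers summed to 345 CPM in AIBP-KO and 364 CPM in WT, of which Fabp4 made up 327 CPM in AIBP-KO and 322 CPM in WT; Ly6c1 was lower in AIBP-KO, at 3.97 CPM against 24.7 CPM in WT, and Pecam1 was at 2.13 CPM in AIBP-KO and 1.88 CPM in WT.

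**Figure D5:**
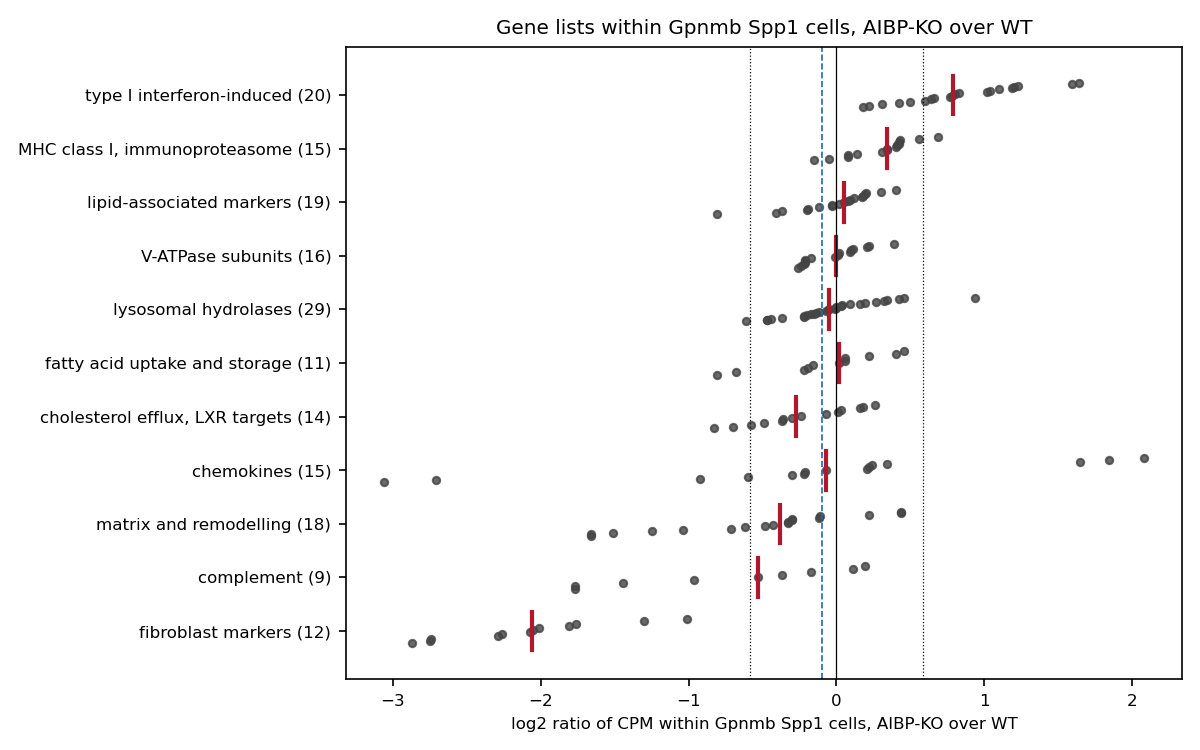
Log2 ratio of CPM in AIBP-KO over WT within Gpnmb Spp1 cells for the genes of 11 lists (dots, with the number of genes beside each name), their medians (red bars), the median of all genes, -0.10 (dashed blue line), and 1.5-fold either way (dotted lines). Type I interferon-induced genes lie to the right (median 0.79) and fibroblast markers to the left (median -2.06), while lipid-associated macrophage genes (0.05) lie close to 0.

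Mmp12 divided the Gpnmb Spp1 cells, and the genes that went with it were described in both libraries; this division was chosen after its values were seen. Cells with an Mmp12 UMI were 186 in AIBP-KO and 429 in WT, and cells without one 567 in AIBP-KO and 748 in WT. Mmp12 is 1 of the 6 rule genes, so this division is not independent of the number of rule genes detected. The 108 AIBP-KO and 199 WT cells with all 6 genes are all among the cells with Mmp12. The values below are therefore a description. Over 4797 genes, 107 were at least 1.5-fold higher and 160 at least 1.5-fold lower in the Mmp12 cells in both libraries. Lpl had 786 CPM in AIBP-KO and 840 CPM in WT cells with Mmp12, against 301 CPM in AIBP-KO and 253 CPM in WT cells without. Anxa1, annexin A1, had 1026 CPM in AIBP-KO and 814 CPM in WT cells with Mmp12, against 392 CPM in AIBP-KO and 258 CPM in WT cells without. F7 and Npy, which set Gpnmb Spp1 cells apart from other macrophages, were higher still in the cells with Mmp12, F7 at 75.6 CPM in AIBP-KO and 57.4 CPM in WT against 22 CPM in AIBP-KO and 12.6 CPM in WT without, and Npy at 125 CPM in AIBP-KO and 133 CPM in WT against 34.8 CPM in AIBP-KO and 39.5 CPM in WT without. Selenop, the selenium carrier, and Ccl8, a monocyte chemokine, were lower: Selenop had 1018 CPM in AIBP-KO and 1338 CPM in WT cells with Mmp12, against 3050 CPM in AIBP-KO and 3291 CPM in WT cells without. Cells with Mmp12 were read more deeply, at a median of 11550 UMIs in AIBP-KO and 7820 in WT, against 7978 in AIBP-KO and 5381 in WT cells without. The parts of depth and of the number of rule genes were not tested.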

How the data were processed

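Per the labels, cells of ligated adductor muscle were sequenced as droplet libraries, 1 per genotype, and the deposited values are whole UMI counts of 32574 genes, not normalized. The submitters' processing notes name Cell Ranger 2.1.1, whereas Cell Ranger 5.0.0 made the counts per the file headers. Genome build and gene models were not given in the sources used here. Sample columns without a use numbered 0.

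Barcodes with under 200 genes (31 AIBP-KO, 49 WT) or over 10% mitochondrial UMIs (197 AIBP-KO, 149 WT) were removed. The members, the 46 gene lists and the comparisons were chosen with earlier results of these data known. Counts were summed per library and cell group, as CPM with exact Poisson intervals; ratios have exact conditional and shares exact Clopper-Pearson intervals (95%). PCR duplicates are removed by UMIs, and intervals cover counting error only. A prior count of 0.5 was added for log2 ratios. A gene was counted as higher or lower past 1.5-fold if it had at least 20 CPM in either group. Symbols on several identifiers numbered 37. Detection was compared after thinning to 2000 UMIs (733 AIBP-KO and 1133 WT cells). Doublets were called with Scrublet as in scanpy, at 0.8% expected per 1000 barcodes.

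Named genes were the 12 highest and 12 lowest for AIBP-KO over WT, by the interval bound nearest 1, and the 15 highest and 12 lowest for Gpnmb Spp1 cells over the others. Ribosomal, mitochondrial, haemoglobin, sex-linked, clone-named and rule genes, and genes at 10 times the level in another cell type, were left out. From each list the most abundant gene and up to 4 others could be named, and a short list with Trem2, Apoe and Abca1 was always given. The divisions by Mmp12 and Mfge8, the genes given for them, and any further list genes named in the text were chosen after their values were seen, and leaving out the 10 cells richest in a gene, leaving out genes as high in fibroblast barcodes and giving equal weight to each number of markers were added after seeing the data. The closing section gives the effect of the alternatives. Python 3.11.15, scanpy 1.11.5, numpy 2.4.6, scipy 1.17.1, pandas 2.3.3 and matplotlib 3.10.9 were used, and the scripts were tested on simulated data. Promoters are from RefSeq, build GRCm38.p6, and were used only as letters; gene overlaps are from GENCODE.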

Additional observations from a re-analysis of the deposited data

Results flagged for a closer look

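Ctsk, the cathepsin K gene, differed in opposite directions in the 2 cell groups. In Gpnmb Spp1 cells it had 106 CPM in AIBP-KO and 55.0 CPM in WT, a ratio of 1.92 (1.71 to 2.17), and in the other macrophages 19.5 CPM in AIBP-KO and 32.3 CPM in WT, a ratio of 0.604. The difference was not tested, since each genotype has 1 library. It was detected in 111 AIBP-KO and 156 WT Gpnmb Spp1 cells. Without the 10 cells richest in it the ratio was 0.892 (0.729 to 1.09). Fibroblast barcodes had 307 CPM in AIBP-KO and 316 CPM in WT.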

How the results depend on the processing

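No paired analysis was possible because each genotype has 1 library. The ratio of shares, 1.07, ran from 1.04 to 1.17 over 6 alternatives. Of 5260 genes 130 were higher and 434 lower in AIBP-KO; higher genes numbered 234 with thinned cells, 215 scaled by the median ratio, 74 at 50 CPM and 277 at 5 CPM, and lower genes 158 at 50 CPM, 1221 at 5 CPM and 101 without genes as high in fibroblast barcodes, an alternative added after seeing the data. Without doublets 146 genes were higher and 294 lower in AIBP-KO, and 4 fibroblast genes were lower. Gpnmb Spp1 cells had 122 higher and 288 lower genes than the other macrophages; 185 were higher against class II cells only and 308 against resident cells only, and lower genes numbered 817 against resident cells only, 139 at 50 CPM and 558 at 5 CPM, with 2 MHC class II genes lower against resident cells. The AIBP-KO resident group has 43 cells. List medians past 1.5-fold of Gpnmb Spp1 cells over others that changed sign were those of neutrophil genes in WT (-0.47 with mean CPM per cell, -0.09 at 5 CPM, main 1.05), alternative activation in WT (0.10 against class II cells, main -0.63), MHC class II in WT (0.11 against resident cells, main -1.15) and, in AIBP-KO against resident cells, fibroblast (1.03, main -0.91), pericyte (2.07, main -0.79) and neutrophil (2.37, main -1.25) genes. The cause was not tested. No list median past 1.5-fold between genotypes changed sign in 348 alternatives over all lists (17 moved), and no gene named by rank in 202 (33 moved). Interferon-induced genes higher in AIBP-KO ran from 10 of 13 to 17 of 24. Equal weight for each number of markers gave 141 higher and 441 lower genes. Depth limits detection: 20 CPM is 141 UMIs in AIBP-KO.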

Other observations

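Gpnmb Spp1 cells had fewer transcripts of early response genes than the other macrophages. Of 23 immediate early and dissociation-associated genes, 8 were at least 1.5-fold lower in both libraries and none was higher, with summed levels of 5006 CPM in AIBP-KO and 5143 CPM in WT Gpnmb Spp1 cells, against 7278 CPM in AIBP-KO and 6613 CPM in WT other macrophages. Klf2, a transcription factor of quiescent cells, was at 0.417 times the other macrophages in AIBP-KO and 0.3 times in WT, and Egr1 at 0.445 times in AIBP-KO and 0.516 times in WT. The redox genes Txn1 and Prdx1, encoding thioredoxin and a peroxiredoxin, were higher, at 1.89 and 1.72 times in AIBP-KO and 1.84 and 1.83 times in WT. Hilpda, the hypoxia-inducible lipid droplet protein gene, was at 1.95 times the other macrophages in AIBP-KO and 2.74 times in WT.

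Between the genotypes, Hilpda had 95 CPM in AIBP-KO and 51.3 CPM in WT Gpnmb Spp1 cells, a ratio of 1.85, and a ratio of 2.61 in the other macrophages. Hif1a, the hypoxia-responsive transcription factor, had 69.1 CPM in AIBP-KO and 107 CPM in WT. Of 13 unfolded protein response genes, 3 were lower in AIBP-KO and none higher: the chaperone gene Calr had 514 CPM in AIBP-KO and 778 CPM in WT, the transcription factor gene Xbp1 84 CPM in AIBP-KO and 127 CPM in WT, and the disulfide isomerase gene Pdia4 84.5 CPM in AIBP-KO and 132 CPM in WT. The other macrophages had ratios of 0.591 for Calr, 0.682 for Xbp1 and 0.606 for Pdia4. Cd38, the main NAD-consuming enzyme of macrophages, had 42.3 CPM in AIBP-KO and 27 CPM in WT Gpnmb Spp1 cells, a ratio of 1.57. Of 15 MHC class I and immunoproteasome genes, Psme2 (1.61) passed 1.5-fold, with a list median log2 ratio of 0.34. Whether any of these ratios differ between Gpnmb Spp1 cells and the other macrophages was not tested.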
